A study of Arabidopsis thaliana with 6 samples.

Results

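Genes of the gibberellin (GA) pathway at 10 loci were followed in Arabidopsis thaliana seedlings treated with lasalocid sodium (LS), a polyether ionophore that carries cations across membranes. The 10 loci encode the synthesis enzymes GA20OX1, GA20OX2 and GA3OX1, the inactivating enzymes GA2OX1, GA2OX2 and GA2OX6, the receptors GID1A and GID1B, and the DELLA proteins RGA and GAI. They were chosen by locus name, and all array probes that name one of these loci were taken, which gave 13 of the 43603 probes on the array. Of these, 12 probes of 9 loci were bright enough to be tested, among 32371 tested probes of 21828 loci.

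Total RNA of whole wild type seedlings of the ecotype Col-0 was hybridized to single-colour Agilent arrays, with 3 control samples and 3 LS-treated samples. All seedlings were 3 days old when they were moved from agar to liquid medium and stayed in the dark at 22 °C throughout. The LS group received 1 µM LS for 24 h, and the control group spent the same 24 h in the same sucrose medium without LS. The methods do not say whether the controls received the solvent of the LS stock. The labels do not say whether the 3 samples of a group were separate cultures, so the p-values below measure the spread between these samples, which may be technical.

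GAs are diterpenoid hormones that promote germination, cell elongation and growth in the dark. GA 20-oxidases and GA 3-oxidases carry out the last steps to the bioactive forms, and GA 2-oxidases inactivate them. When a GID1 receptor binds bioactive GA, it takes hold of a DELLA protein, a repressor of growth, which is then marked for degradation by the F-box protein SLY1. In Arabidopsis, transcripts of GA20OX1, GA3OX1 and the GID1 receptors are known to fall when GA signalling is strong and to rise when it is weak, while those of several GA 2-oxidases do the opposite.

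Signals are given as log2 of the processed signal minus the log2 of the 75th percentile of the same array, so that 0 is the level of that percentile and a difference of 1 is a fold change of 2. The 75th percentile lay between 1067 and 2123 intensity units, and 72.6% to 77.0% of the spots of an array were well above background, with none saturated. One slide carried all 3 control arrays together with LS array 1, while a second slide carried LS arrays 2 and 3. LS array 3 stood apart in its spike-in controls, which lay 0.18 below its 75th percentile against 0.85 to 1.51 above it on the other 5 arrays. The median SD of the tested probes of the 10 loci was 0.15 for controls and 0.18 for LS samples, against 0.17 and 0.27 over all tested probes. A probe was called when the limma p-value adjusted over all tested probes (Benjamini-Hochberg) was under 0.05 and the fold change was at least 1.5.

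**Figure D1:**
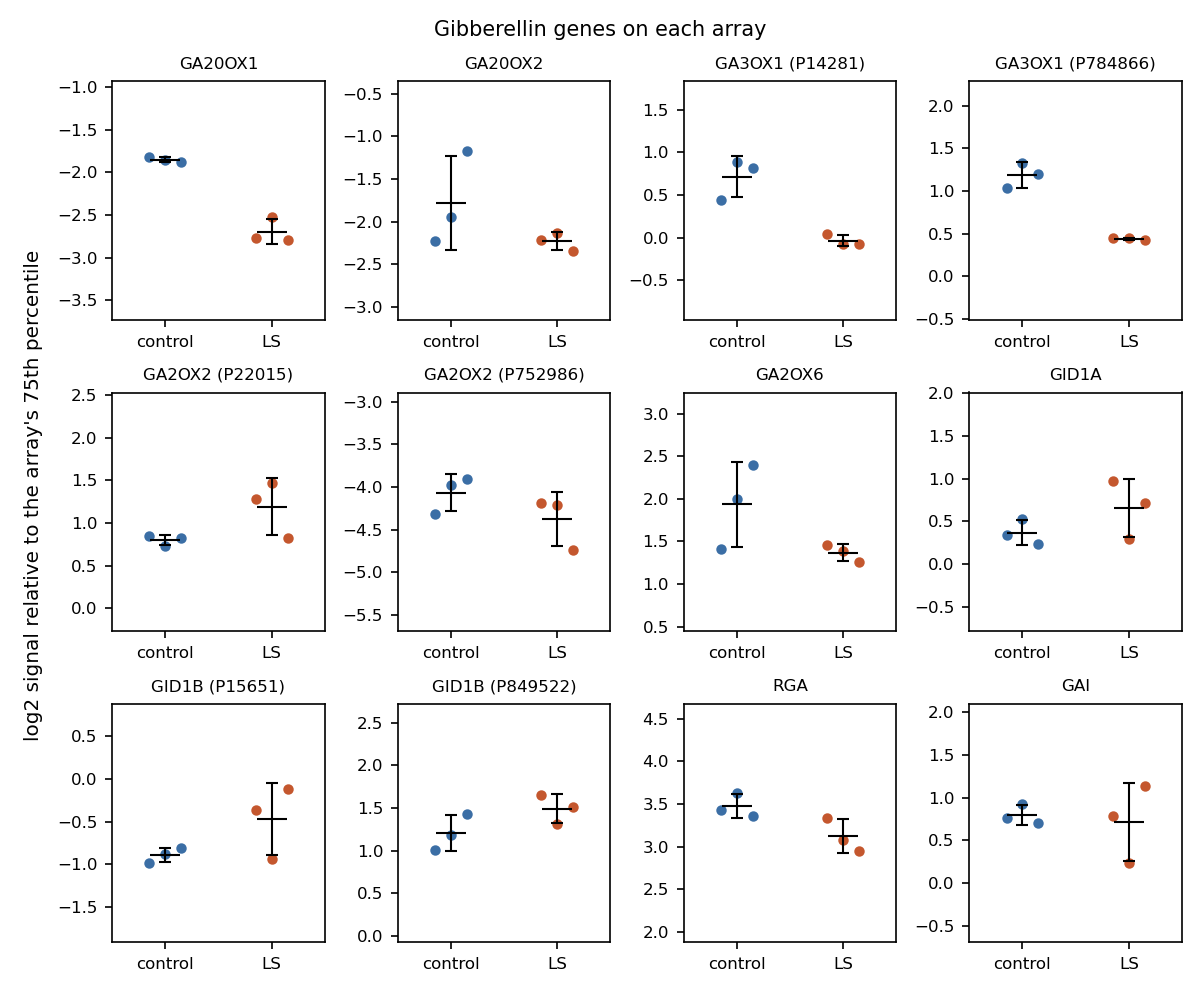
Signal of the 12 tested probes of the gibberellin loci, as log2 relative to the array's 75th percentile, with a point for each of the 3 control and 3 LS arrays (in the order of their numbers), a bar at the mean and whiskers of 1 SD, on axes of equal length but different position. The LS points of GA20OX1, of both GA3OX1 probes and of RGA lie below all control points, while those of the GID1 receptors and GAI overlap the control points.

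GA20OX1 and GA3OX1, which act one after the other at the end of GA synthesis, were 1.79-fold and 1.68-fold lower in LS-treated seedlings, while no receptor and no DELLA gene was called. In all, 2 of the 12 tested probes were called lower and 0 higher with limma, against 2.45% called lower and 2.59% called higher of all tested probes. At an unadjusted limma p under 0.05 there were 3 of 12, all lower. Of all 32371 tested probes, 4618 were lower and 3655 higher at that p, 25.6% in all. On 4 of the 12 probes, those of GA20OX1, GA3OX1 (both) and RGA, every LS array lay below every control array, against 18.6% of all tested probes, and on 0 of 12 every LS array lay above, against 15.1%. The median log2 fold change of the 12 probes was -0.33, and that of all tested probes was -0.04. Because whole seedlings were used, fewer cells that hold a transcript and less transcript per cell cannot be told apart in any of these values.

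GA20OX1 (AT4G25420) encodes a GA 20-oxidase, and it gave the smallest p-value of the 12 probes. Its signal was -1.82, -1.85 and -1.88 in control samples 1 to 3 and -2.77, -2.52 and -2.79 in LS samples 1 to 3. The control arrays were nearly equal, and all 3 LS arrays lay well below them. The group means were -1.85 ± 0.03 and -2.69 ± 0.15 (SD, n = 3 each). This gave a log2 fold change of -0.84 (standard error 0.15, 95% interval -1.20 to -0.48, limma adjusted p = 0.0317), or 1.79-fold lower. LS array 1, the only treated array on the slide of the controls, lay 0.91 below the control mean. The fold change stayed below 0 under all 22 alternatives. The filters, tests, fold thresholds and replicate block leave the estimate unchanged, here and for the probes below. Under those settings the sign carries no information. The call was lost under 12 of the 22, among them every fit with 1 array left out but 1. The exception was the fit without LS array 2 (adjusted p = 0.0408 from limma). Without LS array 3 the log2 fold change was -0.79 (adjusted p = 0.0524 from limma). The call was also lost with the slide as a block (-0.91). That fit takes its LS effect from LS array 1 alone, since the second slide carried only LS arrays. Spike-in scaling of the arrays gave -0.25, where the median of all tested probes moved to 0.55.

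GA20OX2 (AT5G51810) encodes a second GA 20-oxidase. It lay at -2.23, -1.94 and -1.17 in the control samples and at -2.21, -2.14 and -2.34 in the LS samples. The groups overlapped, and control sample 3 stood above the other 5. The log2 fold change was -0.45 with a 95% interval of -1.09 to 0.19 (limma adjusted p = 0.341), so a fall of the size seen for GA20OX1 lies inside the interval and the probe was not called. When control array 3 was left out, the value was -0.15.

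GA3OX1 (AT1G15550) encodes a GA 3-oxidase, which makes the bioactive hormone, and it had a pair of probes. The brighter probe (A_84_P784866) was at 1.03, 1.33 and 1.20 in the control samples and at 0.44, 0.45 and 0.42 in the LS samples. The other (A_84_P14281) read 0.44, 0.89 and 0.82 against 0.04, -0.07 and -0.07. On both probes every LS sample was lower than every control sample, and the LS samples were tightly grouped. Both probes gave a log2 fold change of -0.75, or 1.68-fold lower, and the brighter one was called (standard error 0.15, 95% interval -1.11 to -0.39, limma adjusted p = 0.0397) while the dimmer one was just over the threshold (standard error 0.17, limma adjusted p = 0.0535). LS array 1 lay 0.75 and 0.68 below the control mean on these probes. The direction held for both probes under all 22 alternatives, many of which cannot change the estimate. The brighter probe was no longer called under 13 of them, including each of the 6 fits with 1 array left out (adjusted p = 0.0591 to 0.160 from limma). The slide as a block (-0.75, from LS array 1 alone) was another of the 13. Under spike-in scaling both probes were at -0.16.

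**Figure D2:**
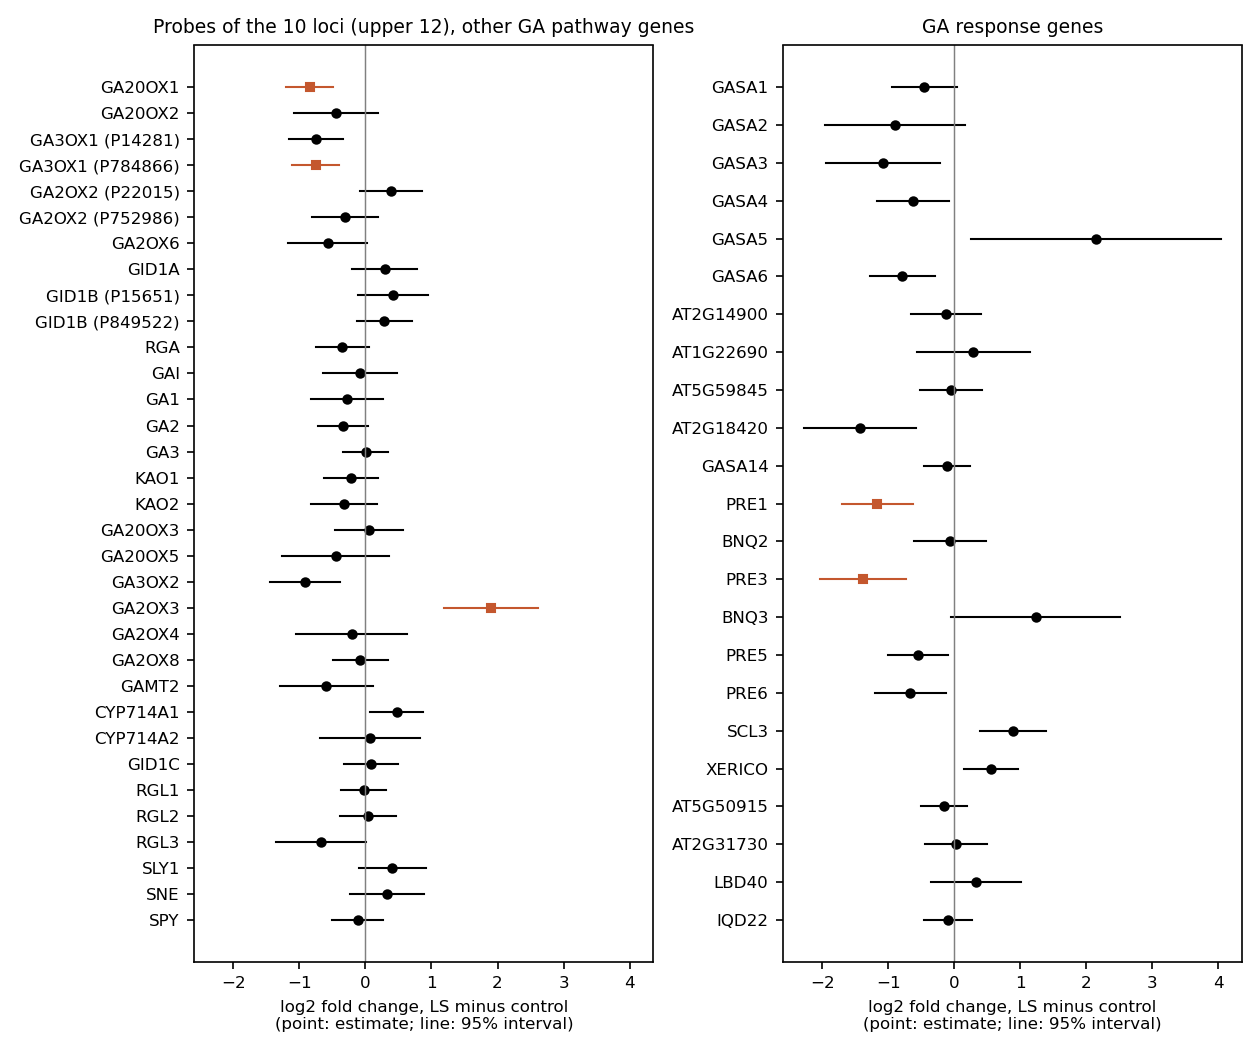
Log2 fold change (LS minus control) with its 95% interval from limma for the 12 tested probes of the gibberellin loci and 21 other pathway genes (left) and 23 gibberellin response genes (right), where orange squares mark called probes and GA2OX3 is drawn at its fitted value although its control level is only a bound. The intervals of GA20OX1 and of both GA3OX1 probes lie below 0, and those of the other 9 probes of these loci include 0.

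Among the GA 2-oxidases GA2OX1, GA2OX2 and GA2OX6, which inactivate GA, no probe was called. GA2OX1 (AT1G78440) was not well above background on any of the 6 arrays and was not tested. GA2OX2 (AT1G30040) had a probe for each of its transcripts in the array's design. The probe of AT1G30040.1 (A_84_P22015) was at 0.85, 0.73 and 0.82 in the control samples and at 1.28, 1.47 and 0.82 in the LS samples. LS samples 1 and 2 were above all controls, whereas LS sample 3 was level with them, and the log2 fold change of 0.39 had an interval that included 0 (95% interval -0.08 to 0.85, limma adjusted p = 0.267). The dim probe of AT1G30040.2 (A_84_P752986) was at -4.32, -3.98 and -3.91 against -4.19, -4.21 and -4.74, with overlapping groups and a log2 fold change of -0.31 (limma adjusted p = 0.400). The log2 difference between these probes on the same array, which no single scaling factor per array changes, was 4.71 to 5.17 in the controls and 5.47 to 5.67 in the LS samples, so that the LS samples were all higher. This ratio was picked after the values were seen and has no test. Of the 66 pairs among the 12 tested probes of the 10 loci, 30 did not overlap in their ratio, or 45.5%. That share includes this ratio, and none was computed over pairs of all tested probes.

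GA2OX6 (AT1G02400), another GA 2-oxidase, was at 1.41, 2.0 and 2.40 in the control samples. The LS samples lay closer together, at 1.46, 1.39 and 1.26. Control sample 1 lay between LS samples 1 and 2, so the groups overlapped. The log2 fold change was -0.57 (standard error 0.26, 95% interval -1.16 to 0.03, limma adjusted p = 0.217), and the SD was 0.50 among controls and 0.10 among LS samples.

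The GID1 receptors showed positive log2 fold changes on all 3 probes, but none was called and the groups overlapped on each. GID1A (AT3G05120) was at 0.34, 0.53 and 0.24 in the control samples and at 0.97, 0.29 and 0.72 in the LS samples, with a log2 fold change of 0.29 (95% interval -0.20 to 0.78, limma adjusted p = 0.420). For GID1B (AT3G63010), the brighter probe (A_84_P849522) was at 1.00, 1.18 and 1.43 against 1.65, 1.32 and 1.51, and the log2 fold change was 0.29 (95% interval -0.13 to 0.71, limma adjusted p = 0.357). The dimmer GID1B probe (A_84_P15651) read -0.98, -0.88 and -0.81 against -0.36, -0.93 and -0.12, with a log2 fold change of 0.42 (95% interval -0.11 to 0.95, limma adjusted p = 0.292). LS sample 2 was the lowest LS sample on all 3 probes, and the other LS samples lay above every control sample. The sign of these changes was positive under all 22 alternatives, many of which cannot change the estimate. With 1 array left out, GID1A ran from 0.14 (without LS array 1) to 0.48 (without LS array 2), the dimmer GID1B probe from 0.24 (without LS array 3) to 0.65 (without LS array 2) and the brighter one from 0.19 (without control array 1) to 0.40 (without control array 3).

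The DELLA genes encode the growth repressors that the receptors bind. RGA (AT2G01570) read 3.43, 3.63 and 3.35 in the control samples and 3.34, 3.08 and 2.95 in the LS samples. All LS samples were lower, LS sample 1 by only a small margin. The log2 fold change was -0.35 (standard error 0.17, 95% interval -0.75 to 0.05, limma adjusted p = 0.252), and RGA was not called, with a value of 0.24 under spike-in scaling. GAI (AT1G14920) was at 0.77, 0.93 and 0.71 against 0.79, 0.23 and 1.14. The LS samples fell on both sides of the controls, and the log2 fold change was -0.08 (95% interval -0.65 to 0.48, limma adjusted p = 0.862). DELLA abundance is set largely by protein turnover, which these arrays do not measure.

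Ratios between probes of one array are untouched by a single scaling factor per array, though not by quantile normalization. Only their change between groups can be read, since probes differ in brightness for reasons other than transcript level. The log2 ratio of the brighter GA3OX1 probe to the brighter GID1B probe was 0.03, 0.15 and -0.23 in the control samples and -1.21, -0.87 and -1.08 in the LS samples. That of the same GA3OX1 probe to the AT1G30040.1 probe of GA2OX2 was 0.18, 0.60 and 0.38 against -0.84, -1.02 and -0.40. In both ratios every LS sample lay below every control sample, with changes of -1.04 and -1.14. Of the 66 pairs among the 12 tested probes of the 10 loci, 45.5% did not overlap in their ratio. That share includes these ratios and many others that hold GA20OX1 or GA3OX1, and none was computed over pairs of all tested probes. Both ratios reuse the GA3OX1 values given above. The ratio of RGA to GAI overlapped between the groups, with a change of -0.27. The ratios given here were chosen after the values were seen and have no test.

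GA20OX1 had the largest SD over the 6 arrays, 0.47, of the 12 tested probes, and its pattern was compared with that of 30342 probes of other loci. The most similar probes were those of the transcript TC308378 (Pearson r = 0.9987), AT3G10405 (r = 0.9973) and AT2G07825 (r = 0.9964), over 6 arrays. A correlation of over 0.9 was reached by 1421 of the 30342 probes, so these 3 were far from alone in a high correlation over 6 arrays that fall into 2 groups. TC308378 had a log2 fold change of -1.12, AT3G10405 of -0.63 and AT2G07825 of -0.81.

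**Figure D3:**
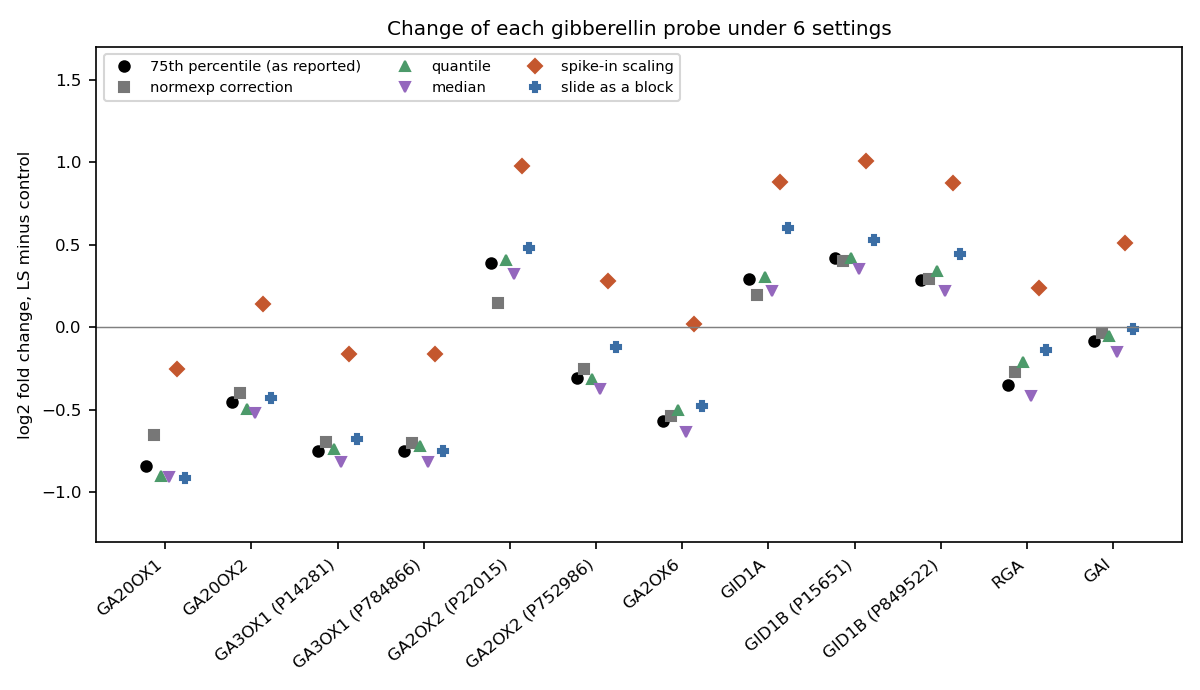
Log2 fold change (LS minus control) of the gibberellin loci for the 12 tested probes under 6 settings, namely the 75th percentile as reported, normexp correction, quantile, median and spike-in scaling, and the slide as a block. GA20OX1 and both GA3OX1 probes stay below 0 under all 6, while spike-in scaling gives the highest value for every probe.

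The remaining genes of the pathway were taken from a list of 26 genes, of which 21 were tested by their brightest probe. GA20OX4, GA3OX3, GA3OX4, GA2OX7 and GAMT1 were not well above background on all arrays of either group and were not tested. With limma, 1 gene was called higher and 0 lower, against 3.18% and 2.19% of all tested genes. At an unadjusted limma p under 0.05 there were 2 higher and 1 lower. Of all 21828 tested genes, 2822 were higher and 2859 lower at that p, 26% in all. Of the 19 genes that were well above background on all 6 arrays, 0 were called. The median log2 fold change was -0.07 against -0.03 over all tested genes. The called gene was GA2OX3, a GA 2-oxidase, which has a pair of probes on the array. One of them was not well above background on any array, and the other was at -7.85, -7.48 and -8.33 in the control samples and at -5.43, -6.27 and -6.26 in the LS samples. The tested probe was well above background on all 3 LS arrays but on none of the control arrays, so the control level is only a bound. With that bound, the probe was at least 2.43-fold higher after LS treatment (log2 1.28), and this lower limit was not tested. The fitted log2 fold change, which uses the control values as measured, was 1.90 (limma adjusted p = 0.0263). Since this probe was tested only because it was bright in the LS group, its call is a description of the probe and adds no support for the list. For this bound, each control array was given its own value or the dimmest signal well above background there, whichever was larger. With the normexp background correction, which adds an offset of 50, the log2 fold change of the probe was 0.16 and the call was lost. The limit of 2.43-fold therefore does not carry over to that setting. The call was also lost with the slide as a block (2.45, from LS array 1 alone). The same held when any control array or LS array 1 was left out. Without LS array 3 the log2 fold change was 2.04 (adjusted p = 0.0468 from limma).

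The other genes of that list with the largest changes were not called. GA3OX2, a GA 3-oxidase, was at -4.80, -4.82 and -5.12 against -5.73, -6.25 and -5.49, a log2 fold change of -0.91 (standard error 0.23, limma adjusted p = 0.063), with all LS samples lower. CYP714A1, a cytochrome P450 that inactivates GA, had a log2 fold change of 0.47 (limma adjusted p = 0.142) with all LS samples higher. RGL3, a DELLA gene, had one of -0.67 (limma adjusted p = 0.201) with overlapping groups. The third GID1 receptor, GID1C, was at 0.69 ± 0.21 and 0.78 ± 0.15 (SD, n = 3 each), and the DELLA genes RGL1 and RGL2 had log2 fold changes of -0.02 and 0.04. For GA2, the ent-kaurene synthase of early GA synthesis, the probes differed, with -0.34 and no call on the brighter and -0.97 and a call (limma adjusted p = 0.0495) on the dimmer. GID1C, RGL1, RGL2 and GA2 were named after their values were seen.

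Genes known to respond to GA or to DELLA proteins were examined next, as 26 genes of the GASA, PRE and DELLA-target classes, of which 23 were tested. Here 2 genes were called lower and 0 higher with limma, against 2.19% and 3.18% of all tested genes. At an unadjusted limma p under 0.05 there were 8 lower and 3 higher, against 26% of all tested genes in either direction, and the median log2 fold change was -0.13. Both called genes encode PRE proteins, small helix-loop-helix proteins that promote cell elongation and are induced by GA and brassinosteroid. PRE1 was at -1.18, -1.10 and -1.0 in the control samples and at -2.16, -1.89 and -2.73 in the LS samples, a log2 fold change of -1.17 (standard error 0.23, limma adjusted p = 0.0381), or 2.24-fold lower. PRE3 was at 1.48, 1.51 and 0.85 against 0.32, -0.09 and -0.56, a log2 fold change of -1.39 (standard error 0.28, limma adjusted p = 0.0387), or 2.62-fold lower. The LS samples were below all control samples for both genes.

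Of the 6 tested PRE genes, 5 had a negative log2 fold change, and on 4 of these every LS sample was below every control sample, against 17.9% of all tested genes. Besides PRE1 and PRE3 these were PRE5 (-0.55, limma adjusted p = 0.135) and PRE6 (-0.66, limma adjusted p = 0.128), neither of which was called. BNQ3, the reference's name for PRE4, went the other way with a log2 fold change of 1.24 (limma adjusted p = 0.210), where control sample 3 was at -4.45 and the other controls at -2.42 and -2.54. The calls of PRE1 and PRE3 were lost under 10 and 11 of 22 alternatives, among them the slide as a block, which rests on LS array 1 alone. Their direction held in all 22, many of which cannot change the estimate. PRE1 lost its call when any control array or LS array 1 was left out and PRE3 when any array was. Without LS array 3 the log2 fold changes were -0.93 (adjusted p = 0.0469 from limma) and -1.16 (adjusted p = 0.0648 from limma).

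Of the other named genes, GASA5 had the largest log2 fold change, at 2.15 (standard error 0.81, limma adjusted p = 0.153), with LS samples at -3.90, -4.65 and -4.53. Control samples 1 and 2 were at -5.16 and -5.74 and control sample 3, not well above background, at -8.62. GASA5 was tested only because it was bright in the LS group, so its rise adds no support for the list. With 1 array left out, its log2 fold change ran from 1.09 to 2.82. For AT2G18420 on the same list, the log2 fold change was -1.43 (standard error 0.36, limma adjusted p = 0.0654) with all LS samples lower. SCL3 and XERICO, known direct targets of DELLA proteins in Arabidopsis, had positive log2 fold changes of 0.89 (limma adjusted p = 0.0566) and 0.56 (limma adjusted p = 0.103), with every LS sample above every control sample, which held for 17.6% of all tested genes. SCL3 was at 1.47, 1.67 and 1.63 in the control samples and at 2.87, 2.14 and 2.42 in the LS samples. A dimmer SCL3 probe overlapped between the groups, with a log2 fold change of 0.39 (limma adjusted p = 0.625). XERICO was at 1.99, 2.03 and 2.11 against 2.87, 2.51 and 2.41. Neither was called. The other 4 tested DELLA targets overlapped between the groups by their brightest probe, with log2 fold changes of 0.33 for LBD40, 0.03 for AT2G31730, -0.09 for IQD22 and -0.15 for AT5G50915. A dimmer probe of AT2G31730 had 0.50 with all LS samples higher. A dimmer probe of AT5G50915 had -0.21 with all LS samples lower. Neither was called, and the remaining probes of both genes overlapped. PRE5, PRE6, SCL3, XERICO and the other 4 DELLA targets were named after their values were seen.

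**Figure D4:**
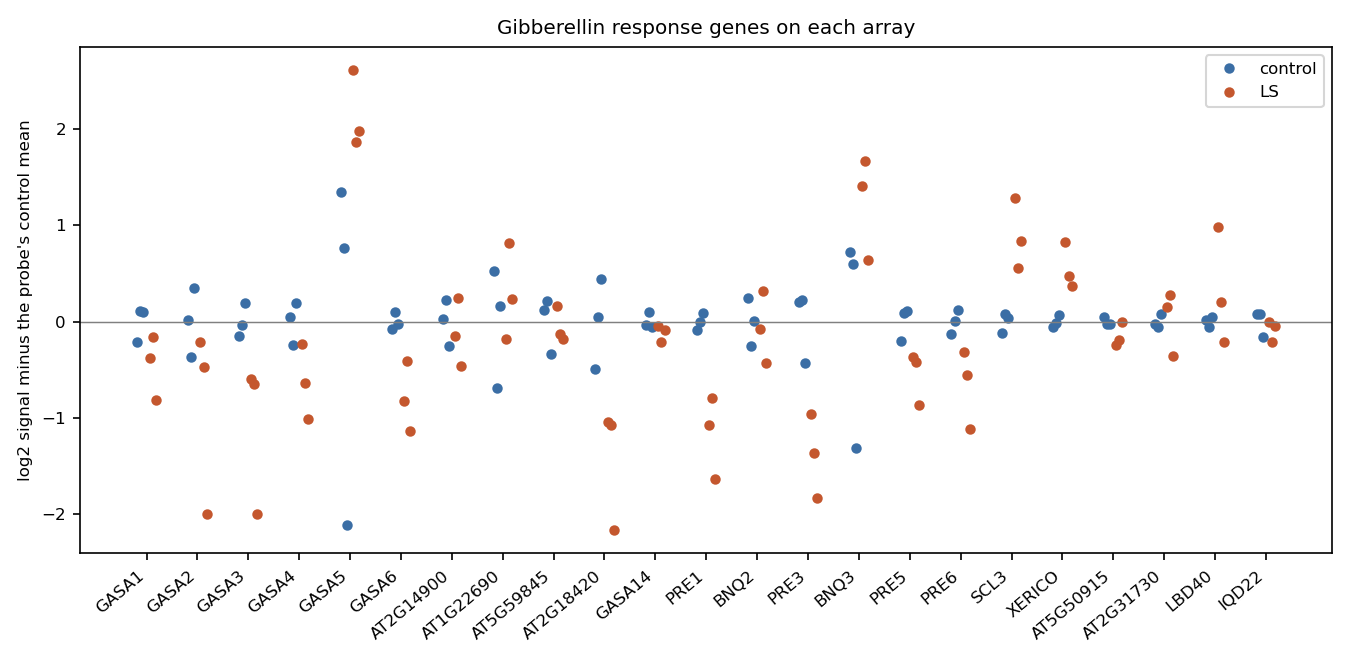
Signal on each array minus the control mean of the same probe, on the log2 scale, for the 23 tested gibberellin response genes by their brightest probe, with points for control and LS arrays. The LS points of PRE1 and PRE3 lie below the control points and those of SCL3 and XERICO lie above them.

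The seedlings hold several organs, and 11 organ markers were examined beside these results, of which 0 were called with limma by their brightest probe and 5 had an unadjusted p under 0.05, against 26% of all tested genes. The etiolated seedling marker PORA had a log2 fold change of -0.28 with overlapping groups, and was bright on all arrays. The summed level of the 3 root markers relative to the 75th percentile, on the linear scale, was 2.15 to 2.48 in the control samples and 2.91 to 4.08 in the LS samples. Summed levels of the shoot apex markers STM and CLV3 were 0.313 to 0.375 against 0.164 to 0.260. Those of RBCS1A and CAB2, listed as green tissue markers, were 210.4 to 239.0 against 153.6 to 167.7. The latter values came from 2 LS arrays, because a spot of LS sample 3 was left out. All seedlings stayed in the dark, so the levels of RBCS1A and CAB2 cannot be read as a share of green tissue. Root marker sums were higher, and those of the shoot apex markers and of RBCS1A and CAB2 lower, in the LS samples without overlap. The sums of the 3 seed markers overlapped, at 169.4 to 281.0 against 170.9 to 254.1. Of all tested genes taken singly, 17.6% had every LS sample higher and 17.9% every LS sample lower. On the linear scale a sum follows its brightest marker. The log2 control means were 0.80 for SCR, -0.91 for PIN2 and -7.04 for PLT1. They were -1.75 for STM and -4.65 for CLV3, and CLV3 overlapped between the groups. The root markers did not move as one, since SCR had a log2 fold change of 0.73 and PIN2 one of -0.26 with overlapping groups (limma adjusted p = 0.431). Probes of a marker could disagree as well. For RBCS1A, 12 of its 13 tested probes overlapped between the groups, with log2 fold changes of -0.50 to 0.15, and only the brightest, which enters the sum, did not. A dimmer SCR probe had a log2 fold change of -1.15, with all LS samples lower, against 0.73 on the brighter. A dimmer CAB2 probe was called lower at -1.51 (limma adjusted p = 0.0367). PLT1, a root marker, was not well above background on every control array. The part of these shifts in the changes of GA20OX1, GA3OX1, PRE1 and PRE3 was not tested.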

How the data were processed

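The 6 scanner tables were made by the authors with Agilent Feature Extraction 10.7.3.1, and the deposited processed signal is a background-subtracted intensity on a linear scale. The deposited value table of 38614 spots holds a ratio, the processed signal over the array's 75th percentile. The deposited flags for spots well above background and for outliers (whole-number marks) were also read, and 0 sample columns were left unmapped.

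From these, 1417 control spots per array were left out, outlier spots were set missing (250 tested probes), spots of one probe were averaged, and log2 signals were centred on the array's 75th percentile. A probe was tested when well above background on all arrays of at least 1 group. Groups were compared with limma 3.58.1 in R 4.3.3 over all 32371 tested probes, and the pipeline was tested on simulated data. Genes outside the 10 loci were represented by their brightest tested probe. Gene names come from the TAIR10.1 reference, which held 21614 of 21828 tested loci, some of them without a gene name.

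The loci and lists were chosen with earlier results of these data known. Named genes were all probes of the 10 loci, every called gene and the 2 largest rises and falls of each other list, and the 3 probes most similar to the member with the largest SD over the arrays. Alternatives were normexp background correction (on the median signal, since no mean signal was read), quantile, median and spike-in scaling, other filters, the methods' Welch t-test, other fold thresholds, the replicate number or slide as a block, the deposited ratio table, the mean over probes and each array left out. Spike-in scaling without LS replicate 3 and the ratios between probes were added after the data were seen. The number of arrays, 3 per group, limits the precision.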

Additional observations from a re-analysis of the deposited data

How the results depend on the processing

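Over 22 alternatives, 460 log2 fold changes of 21 named probes were computed, and 386 kept their direction and their side of the threshold, 13 became called, 54 lost the call and 7 changed sign. Filters, tests, fold thresholds and the replicate block leave the estimate unchanged, so a sign could change only under the other settings. The slide block takes its LS effect from LS array 1 alone. Spike-in scaling moved the median of all tested probes from -0.04 to 0.55, and relative to 0 it turned GA20OX2 to 0.14, GA2OX2 (AT1G30040.2) to 0.28, GA2OX6 to 0.023, RGA to 0.24 and GAI to 0.51. Without LS replicate 3 that median was 0.15 and only GA2OX2 (AT1G30040.2) turned, to 0.082. With 1 array left out, GAI ran from -0.29 to 0.16, and it was above 0 without LS replicate 2. The cause was not tested. Counts are given as higher and lower, against 840 and 793 of all probes, 0 and 2 of the GA probes, 1 and 0 of the other pathway genes and 0 and 2 of the response genes. All probes gave 135 and 107 without a filter, 1517 and 1632 with the methods' test unadjusted, 1 and 0 with it adjusted, 2531 and 3297 with limma unadjusted, 24 and 83 with the slide as a block, 917 and 85 with spike-in scaling (91.5% of calls higher, against 51.4%), 1209 and 508 with it and without LS replicate 3 (70.4% higher), and 559 higher at a fold of at least 2. The GA probes gave 0 lower without a filter, with the adjusted methods' test, at a fold of at least 2, with either block and with both spike-in scalings. Other pathway genes gave 0 higher without a filter, with the filter on all 6 arrays, the adjusted methods' test, normexp and the slide block, and 1 lower with both unadjusted tests and median centring. Response genes gave 0 lower without a filter, with the adjusted methods' test, the slide block and both spike-in scalings, 2 higher with both spike-in scalings, 1 higher with normexp, quantile scaling and the unadjusted methods' test, and 2 and 7 with limma unadjusted. With 1 array left out, all probes gave 38 to 735 higher and 12 to 661 lower, the GA probes 0 to 1 lower, the other pathway genes 0 to 1 higher, and the response genes 0 to 1 higher and 0 to 2 lower. Quantile scaling gave 60.3% of calls higher.

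The labels name no pairing of control and LS samples beyond a shared number. Deviations of same-numbered samples correlated at 0.03, -0.12 and -0.19, and those of unlike-numbered samples at -0.13 to 0.20. With 3 samples per group these values cannot decide whether samples were paired. The replicate block gave 197 and 167 calls over all probes, 0 of the GA probes and 1 lower of the response genes.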

Other observations

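The GASA family, small secreted cysteine-rich peptides many of which respond to GA, was tested by 11 genes, of which 0 were called with limma and 9 had a negative log2 fold change, against 53.1% of all tested genes. An unadjusted limma p under 0.05 was reached by 4 lower and 1 higher. The higher gene was GASA5, which was tested only because it was bright in the LS group. Of all 21828 tested genes, 2859 were lower and 2822 higher at that p, 26% in all. The GASA log2 fold changes had a median of -0.45, against -0.03 over all tested genes. GASA6, which is known to be induced by GA, was at -0.11, 0.06 and -0.06 in the control samples and at -0.85, -0.44 and -1.17 in the LS samples, a log2 fold change of -0.79 (limma adjusted p = 0.0738). GASA3 had a log2 fold change of -1.08 (limma adjusted p = 0.126), where LS sample 3 was at -1.98 and the other LS samples at -0.58 and -0.63. The pair of probes of GASA4 differed in sign, with -0.63 on the brighter and 0.16 on the dimmer. Likewise, the pair of probes of SLY1, the F-box protein that marks DELLA proteins for degradation, gave 0.41 and 1.44 with all LS samples higher on both, and neither was called (limma adjusted p = 0.280 and 0.0827). These genes were named after their values were seen.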
